A study of Homo sapiens with 9 samples.

Results

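The genes described here encode the translation initiation factors of human cells, together with the kinases and binding proteins that carry the same family of symbols. They are all protein-coding genes whose symbol begins with EIF followed by a digit from 1 to 6, and there were 56 of them among 20056 protein-coding genes in RefSeq (assembly GRCh38.p14). A binding site was counted for a gene when its centre lay inside the outermost RefSeq span of the gene and on the strand of the gene. This gave 828 sites of the 96852 in the deposited list, or 0.855% of the list, from genes that make up 0.279% of protein-coding genes.

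The sites are those of SF3B1 in K562 cells, a long-established line from a human leukaemia, and were mapped by iCLIP. This method fixes a protein to the RNA it touches with ultraviolet light, pulls it down with an antibody, and reads the fixed position by sequencing. The list is attached by the labels to 3 libraries of SF3B1 from K562 cells with the genotype SF3B1 wt/wt, which were crosslinked at 400 mJ/cm2 and 254 nm and had no other treatment. The series also holds 2 libraries of SF3B1 from K562 cells with the genotype SF3B1 K700E/wt, from the same supplier, and 4 libraries of U2AF2 from SF3B1 wt/wt cells of a different supplier, for which no table was analysed here. Per its header, the list keeps sites found in every replicate of at least 1 condition, so single sites are not assigned to a genotype below. The list merges the replicates and gives positions only, without read numbers, so the depth is unknown, no spread between cultures can be given and no test between conditions was possible.

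Initiation factors bring the initiator tRNA, the small ribosomal subunit and the messenger RNA together and find the start codon. The eIF4 proteins bind and unwind the capped end of the messenger RNA, eIF3 and eIF2 bring in the small subunit and the initiator tRNA, and eIF5B joins the large subunit. SF3B1 works earlier in the life of these messenger RNAs, in splicing. It belongs to the U2 small nuclear ribonucleoprotein, which recognises the branch point of an intron ahead of the 3′ splice site.

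At least 1 SF3B1 site was found in 46 of the 56 genes, or 82.1% (95% Wilson interval 70.2% to 90.0%). The 56 genes are all that the rule gives and include close copies. They are not independent draws, and the interval covers counting error only. Among all protein-coding genes the share was 37.9%. At least 20 sites were found in 16 of the 56 genes, against 7.2% of all protein-coding genes, and at least 50 sites in 3, against 1.35%. In these 46 genes the median was 13.5 sites and the quartiles were 7 and 27, while the median over all protein-coding genes with a site was 7. Their spans were shorter, with a median of 23.3 kb against 36.1 kb, so that the median density was 0.674 sites per kb against 0.199. No measure of RNA abundance was used here, and a list of reproducible sites can leave out sites in rare RNA, so a number of sites is not a rate of binding per transcript and its relation to expression was not tested.

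Sites were also found in most genes of a chosen list of 33 other translation genes, for initiation partners, elongation factors and termination factors. Of these, 30 had a site, or 90.9% (95% Wilson interval 76.4% to 96.9%), with medians of 17.5 sites and 0.563 sites per kb in those 30. Over all protein-coding genes 37.9% had a site, with medians of 7 sites and 0.199 sites per kb in those that did. All 22 initiation partners and regulators had a site. The list was chosen with earlier results of these data known, so its share and interval are given as a description only. Its differences from the initiation factor genes and from all protein-coding genes were not tested. PABPC1, which encodes the main cytoplasmic poly(A)-binding protein, had 58 sites, DDX3X, an RNA helicase, 55, LARP1, a binding protein of messenger RNAs with a terminal oligopyrimidine start, 48, PABPC4 46 and EEF1D, an elongation factor subunit, 41. The 3 genes without a site were EEF1A2, EEF1G and GSPT2.

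**Figure D1:**
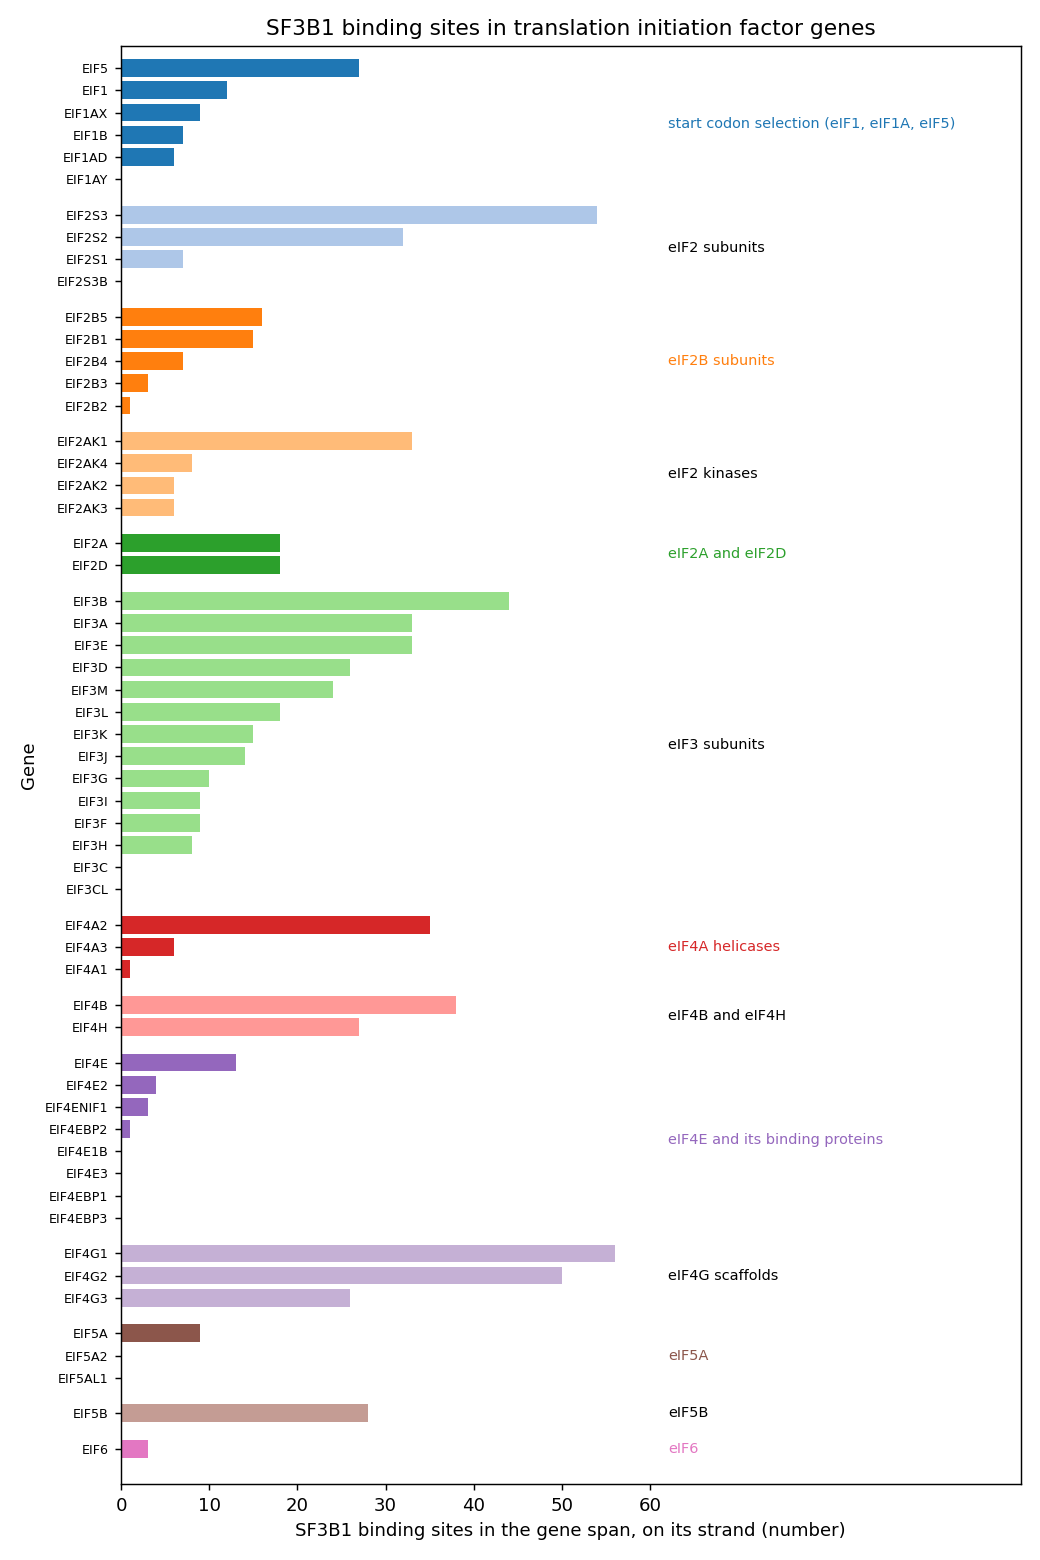
Number of SF3B1 binding sites in the span of each of the 56 translation initiation factor genes (horizontal axis), grouped by the role assigned here to the encoded protein and ordered within each group. EIF4G1 (56 sites), EIF2S3 (54) and EIF4G2 (50) have the longest bars, and 10 genes have no bar because no site was listed.

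**Figure D2:**
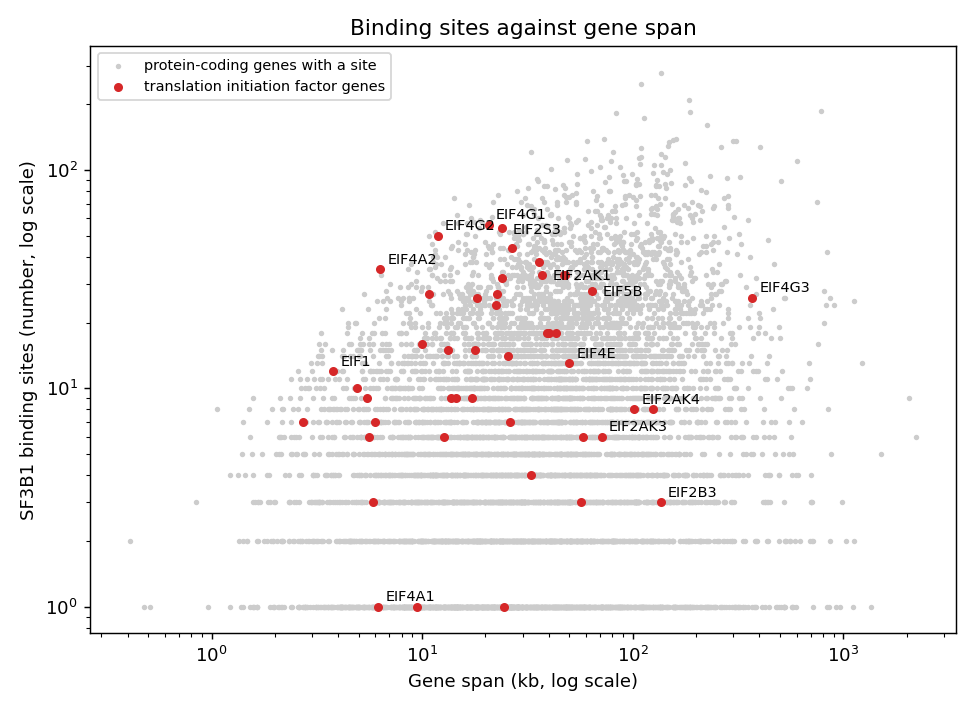
Number of SF3B1 sites against gene span in kb, both on log scales, for the 46 translation initiation factor genes with a site (red) and all 7608 protein-coding genes with a site (grey). EIF4A2, with 35 sites in 6.32 kb, lies at the upper edge of the grey points, and EIF4A1, with 1 site in 6.18 kb, lies at the lower edge.

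Sequence could be shown for 9 of the 828 sites, those that happen to fall in a window around an annotated transcript start for which RefSeq sequence (GRCh38.p14) was at hand. They are shown because they are the only crosslinked letters of these genes that could be read, and because they include the site nearest to a gene start. The windows are at most 30 bases, written 5′ to 3′ in the sense of the gene, with the bases of the listed sites in capitals.
EIF4A2 first site: gggcgccgctgtCTTTTcagtcgggcgct
EIF1B first pair: gccactccaGCCTAaTCCCAaccccaggg
EIF1B second pair: ttcttatttaTTTCCGTTTTctcgccacta
EIF3I first pair: tgcagtgggGGTCCtgGGCTGaggctgggg
EIF3I next site: actgacgttactGTCTTgtccccacagaa
EIF4G3 first site: taatgaaatactGCTTAgtatgtgctaag

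The EIF4A2 window is chr3:186783565-186783593 on the plus strand, and its site covers the first 5 bases of the annotated gene. The EIF1B windows are chr3:40309800-40309828 and chr3:40309838-40309867, and the EIF3I windows are chr1:32222468-32222497 and chr1:32222511-32222539, all on the plus strand. The EIF1B sequences come from around the start of EIF1B-AS1 and the EIF3I sequences from around that of TMEM234. Both of these other genes are annotated on the minus strand. The EIF4G3 window is chr1:21111419-21111447 on the minus strand, 48 nt from an alternative start of that gene. The EIF4A2 site thus lies in an annotated first exon, and for the other windows exons and introns were not distinguished, since exons were not given. Across the 9 sites T made up 44.4%, C 28.9%, G 20% and A 6.67% of the bases. All 427 sites of the list that fell in such windows had 57.9% T, 22.1% C and 9.60% G. The whole windows had 21.3% T, 28.4% C and 29.2% G. The 9 sites lie in 4 genes, and neighbouring sites share their sequence context, so the composition is given as a description.

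The eIF4F complex binds the cap of the messenger RNA, and its scaffolds, the eIF4G proteins, include the member with the most sites. EIF4G1, which joins the cap-binding protein to the helicase and to eIF3, had 56 sites in 20.8 kb, 2.70 per kb. EIF4G2 encodes DAP5, a relative of eIF4G1 that lacks the part that binds eIF4E. It had 50 sites in 11.9 kb, or 4.21 per kb, rank 27 by density among all 4630 coding genes that had at least 5 sites. EIF4G3, which encodes a second scaffold with the same role as eIF4G1, had 26 sites, but its span is 371 kb and the density only 0.0702 per kb. The counts of EIF4G1 and EIF4G3 thus differed less than their densities, of which that of EIF4G1 was 38.5 times higher.

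Sites were spread over nearly the whole of EIF4G1, with the first 0.819 kb and the last 20.6 kb from the start of the gene. They formed 35 clusters when neighbours at most 60 nt apart were linked, 23 of them a single site. In EIF4G2 the 50 sites formed 34 clusters, from 0.123 to 11.0 kb, with no gap above 1.16 kb. In EIF4G3 by contrast the 26 sites fell into 12 clusters, 24 of the sites in the second 50% of the span, and a stretch of 109 kb between 65.5 and 174 kb had none.

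The eIF4A genes encode DEAD-box helicases, 2 of which unwind messenger RNA in initiation, while eIF4A3 is a core protein of the exon junction complex. EIF4A2 had 35 sites in 6.32 kb, or 5.54 per kb, the highest density of all members and rank 4 among those 4630 genes. EIF4A1, of almost the same length, had 1 site in 6.18 kb, a density 34.2 times lower, and EIF4A3 had 6 sites in 12.8 kb. The site of EIF4A1 also lies in the annotated readthrough transcript SENP3-EIF4A1, which carried 8 sites in all on that strand. RefSeq lists 13 pseudogenes named after EIF4A1 and 5 named after EIF4A2. The members with the next most pseudogenes after EIF4A1 were EIF4B with 9, and EIF2S2 and EIF1 with 7 each. These 3 genes had 38, 32 and 12 sites. Pseudogene copies can take up reads that map to several places, and how such reads were handled is not given in the sources used here. The part of the copies in the difference between EIF4A1 and EIF4A2 was not tested.

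Both genes are hosts of small nucleolar RNAs (snoRNAs), which guide the modification of other RNAs and are cut from introns. In EIF4A2 there are 5 snoRNA genes. A site lay inside SNORA81, and another, counted inside SNORA63B, had its centre on the last base of that gene and reached beyond it. Other sites were found 6 nt upstream and 12 nt downstream of SNORA63B and 14 nt downstream of SNORA4. EIF4A1 carries 3 snoRNA genes, none with a site inside, and its only site lay 393 nt downstream of SNORD10. Over the 7 members that host a total of 14 snoRNA genes, 4 of 210 sites (1.90%) lay inside a snoRNA, which covers 0.864% of their spans. The other 2 of these sites lay in SNORD97 within EIF4G2, and another site lay 3 nt upstream of it. The table of small RNA genes gives no strand.

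**Figure D3:**
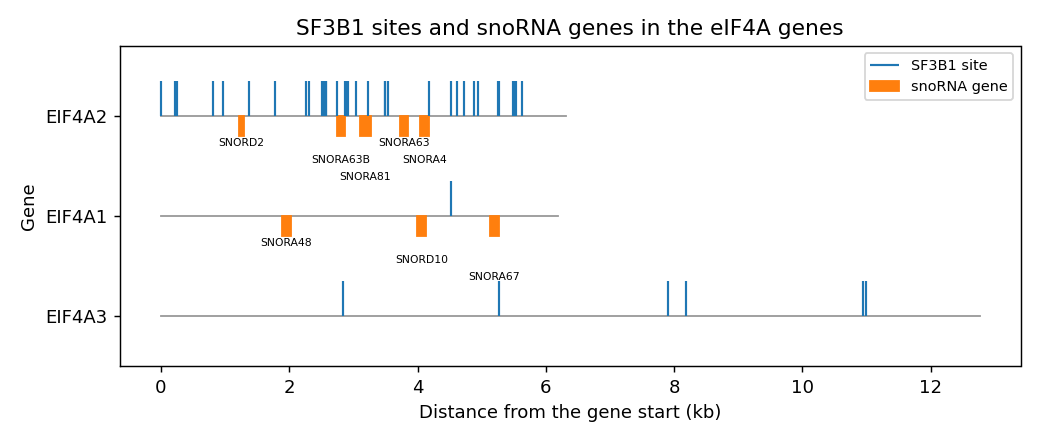
Positions of SF3B1 sites (blue ticks) and snoRNA genes (orange boxes) along the eIF4A genes, in kb from the gene start. EIF4A2 has 35 ticks from 0.002 to 5.62 kb, EIF4A1 has 1 tick at 4.53 kb, and EIF4A3 has 6 ticks.

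The helper proteins of the helicase, eIF4B and eIF4H, had many sites. EIF4B had 38 sites, 1.06 per kb, the first 9.96 kb from the start of its 35.8 kb span. They formed 20 clusters, and 16 of the sites lay between 30.9 and 33.6 kb. EIF4H had 27 sites, 1.19 per kb, all of them in the second 50% of the span, from 13.2 kb on. One of them lay 15 nt upstream of MIR590, a microRNA gene inside EIF4H.

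Pooled over its genes, the group of the cap-binding protein and its partners had the fewest sites per kb of all groups. EIF4E, the cap-binding protein, had 13 sites in 49.9 kb, none in the first 27.1 kb. Its own density, 0.261 per kb, was above the median of 0.199 over all protein-coding genes with a site. EIF4E2, a relative that acts in repression, had 4, and EIF4ENIF1, which carries eIF4E into the nucleus, had 3, of which 1 lay inside RNU6-28P, a U6 small nuclear RNA pseudogene. Among the eIF4E-binding proteins, which block the joining of eIF4E to eIF4G, EIF4EBP2 had 1 site, and EIF4EBP1 and EIF4EBP3 had none. EIF4E3 and EIF4E1B also had none. The 8 genes together had 21 sites, or 0.0684 per kb, against 0.327 per kb over the 3 eIF4G genes and 1.66 per kb over the 3 eIF4A genes.

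The factor eIF2 carries the initiator tRNA, and its subunits differed widely. EIF2S3, for the gamma subunit that binds GTP and the tRNA, had 54 sites in 23.9 kb, or 2.26 per kb. EIF2S2, for the beta subunit, had 32 sites in 23.9 kb, and EIF2S1, for the alpha subunit that the stress kinases phosphorylate, had 7 in 26.2 kb. The longest of these 3 spans thus had the fewest sites. The span of EIF2S1 lies inside that of GPHN on the same strand, and its sites cannot be told apart from sites of GPHN RNA. EIF2S3B, a copy of EIF2S3 on an autosome, had no site.

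In EIF2S3, 27 of the 54 sites lay in a stretch of less than 3 kb, between 20.4 and 22.7 kb from the start. A gap of 5.33 kb without a site came before it, between 13.0 and 18.3 kb. The gene also held one of the 2 clusters of 5 sites, which spanned 92 nt at chrX:24064131-24064227. The other was in EIF4A2 and spanned 74 nt at chr3:186786079-186786157. No cluster in these genes was larger. In EIF2S2, 20 of 32 sites lay between 13.4 and 15.4 kb.

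The kinases that phosphorylate eIF2 answer to different stresses. EIF2AK1, the heme-regulated inhibitor that is abundant in erythroid cells, had 33 sites in 36.9 kb, or 0.894 per kb. EIF2AK2 (PKR, activated by double-stranded RNA) had 6, EIF2AK3 (PERK, of the endoplasmic reticulum) had 6, and EIF2AK4 (GCN2, activated by uncharged tRNA) had 8. The density of EIF2AK1 was 8.60 times that of EIF2AK2, 10.6 times that of EIF2AK3 and 11.3 times that of EIF2AK4, all of which have longer spans. In EIF2AK1, 19 of the 33 sites lay between 11.9 and 14.5 kb, and a stretch of 8.16 kb between 21.9 and 30.1 kb had none. EIF2AK1 also had the most pairs of sites 25 to 45 nt apart of any member, 13.

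The factor eIF2B recharges eIF2 with GTP. Of its 5 subunits, EIF2B5 (epsilon, the catalytic subunit) had 16 sites and EIF2B1 (alpha) 15, followed by EIF2B4 (delta) with 7, EIF2B3 (gamma) with 3 and EIF2B2 (beta) with 1. EIF2B3 has the longest span of the group, 136 kb, and had the lowest density of all members with a site, 0.0220 per kb. EIF2A and EIF2D, which have been described to deliver initiator tRNA without eIF2, had 18 sites each. All 18 sites of EIF2D lay in the first 50% of its 43.3 kb span.

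The 14 genes of eIF3, the largest initiation factor and the platform on the small ribosomal subunit, held 243 sites, more than any other group. EIF3B led with 44 sites, followed by EIF3A and EIF3E with 33 each, EIF3D with 26, EIF3M with 24 and EIF3L with 18. EIF3K had 15, EIF3J 14, EIF3G 10, EIF3F and EIF3I 9 each, and EIF3H 8. Per kb the order was different, with EIF3G at 2.05 in a span of 4.89 kb, EIF3B at 1.65 and EIF3D at 1.42, against 0.700 in EIF3A and 0.0644 in EIF3H. In EIF3B, 21 of the 44 sites lay between 10.2 and 13.0 kb, and the first 6.58 kb had none. The 33 sites of EIF3A formed 23 clusters, 16 of them a single site, and lay between 7.10 and 43.8 kb of a 47.1 kb span. In that gene 11 sites lay between 28.9 and 30.5 kb, and the 12.9 kb that followed had none. EIF3E, with 0.695 sites per kb in a 47.5 kb span, had 20 clusters, 11 of them a single site. Its sites ran from 6.76 to 46.8 kb, 10 of them between 12.5 and 14.2 kb, with a gap of 11.0 kb after 34.1 kb. In EIF3H all 8 sites lay between 108 and 120 kb of a 124 kb span.

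EIF3C and EIF3CL, 2 nearly identical copies of one subunit on chromosome 16, were the only eIF3 genes without a site. Counts of near-identical copies are uncertain, because how reads that fit both were counted is not given in the sources used here, and the part of read placement in these counts was not tested.

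Start codon selection rests on eIF1, eIF1A and eIF5. EIF5, which makes eIF2 hydrolyse its GTP, had 27 sites in 10.8 kb, 2.50 per kb, of which 15 lay between 1.35 and 4.08 kb. EIF1, which keeps the scanning ribosome from stopping at a poor start codon, had 12 sites in only 3.78 kb, 3.17 per kb, all in the first 50% of the span. Its paralog EIF1B had 7 sites in 2.72 kb, 2.58 per kb, so the 2 densities were within 1.23 times of each other. RefSeq lists 7 pseudogenes named after EIF1 and 0 named after EIF1B. The first cluster of EIF1B, which the sequences above show, held 4 of its 7 sites within 44 nt. EIF1AX had 9 sites, of which 3 lay inside SCARNA9L, a small Cajal body RNA gene annotated in its span. EIF1AD, for which a part in start codon selection was not examined here, had 6. EIF1AY had none, and the list has no site on chromosome Y.

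EIF5B, the GTPase that joins the subunits, had 28 sites in 63.9 kb, or 0.438 per kb, all from 22.8 kb on. They formed 19 clusters, 13 of them a single site. EIF5A, which helps ribosomes over difficult peptide bonds and carries the modified amino acid hypusine, had 9 sites in 5.47 kb. Its relatives EIF5A2 and EIF5AL1 had none. EIF6, which keeps the large subunit from joining too early, had 3 sites. The 10 members without a site were thus EIF1AY, EIF2S3B, EIF3C, EIF3CL, EIF4E1B, EIF4E3, EIF4EBP1, EIF4EBP3, EIF5A2 and EIF5AL1. Without read numbers, RNA that was absent or too rare, RNA that SF3B1 did not contact and reads that were not placed cannot be told apart.

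**Figure D4:**
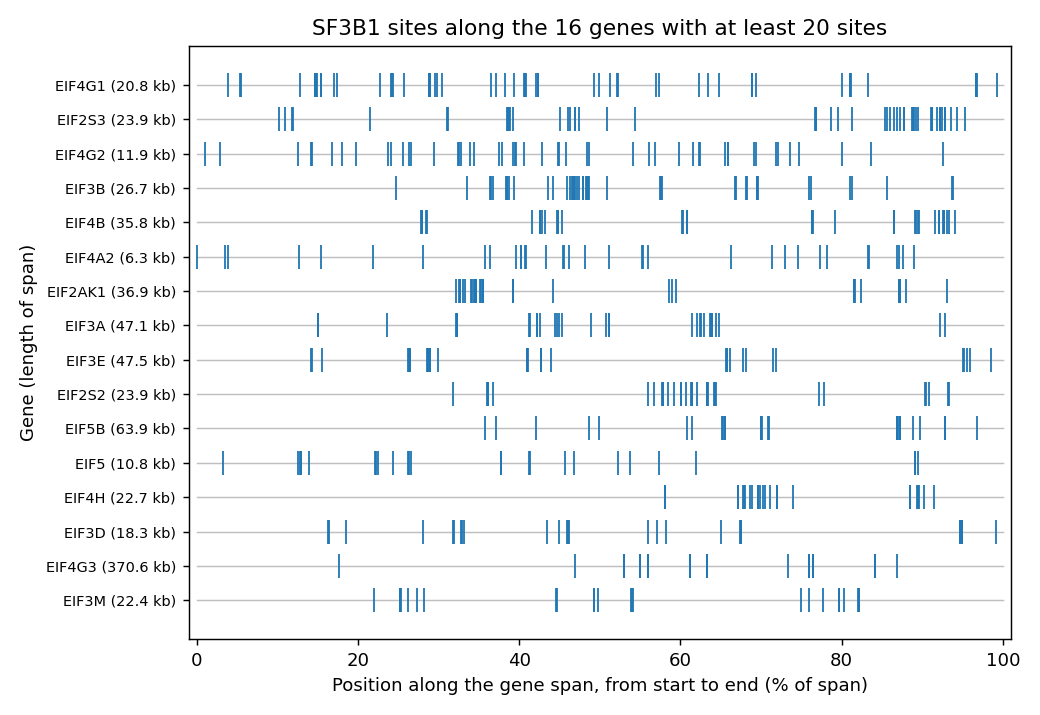
Positions of SF3B1 sites (ticks) along the 16 translation initiation factor genes with at least 20 sites, in % of the gene span from start to end. Sites of EIF4G1 and EIF4G2 are spread over the span, those of EIF4H begin at 58.1% and those of EIF5B at 35.7%.

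The start of a gene was poor in sites. In the 39 members with at least 5 sites, the first site lay a median of 18.2% into the span, against 24.6% in all 4630 such protein-coding genes. The first 10% of the span held 2.83% of the sites (95% Wilson interval 1.89% to 4.21%), against 4.48% over all such genes. The last 10% held 8.37% (6.66% to 10.5%), against 13.4%, and the second 50% of the span held 55.3% (51.9% to 58.7%), against 63.6%. Sites of a gene are not independent, so these intervals cover counting error only and the difference from other genes was not tested.

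Sites came in close groups. The 828 sites formed 512 clusters at a link of 60 nt, of which 312 (60.9%) were single sites and 94 held at least 3. In all protein-coding genes 63.2% of clusters were single sites. There were 196 pairs of sites 25 to 45 nt apart and 56 pairs 46 to 66 nt apart, a ratio of 3.50, against 3.59 in all protein-coding genes. The most frequent distance in this range, after summing over 3 adjacent distances, was 37 nt in the members and 37 nt in all genes. At longer range there were 163 pairs 140 to 180 nt apart and 72 pairs 60 to 100 nt apart, a ratio of 2.26, against 1.72 in all protein-coding genes. The ratio at longer range was not among the planned results, and its difference from all protein-coding genes was not tested. The spans of distance were taken from an earlier analysis of the whole list, of which the members are a part.

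The pairs were unevenly shared among members. EIF4G1 and EIF4A2 had 12 pairs 25 to 45 nt apart each, and EIF2S3, EIF4B and EIF4G3 had 11 each. EIF3B was an exception, with 6 such pairs and 11 pairs 46 to 66 nt apart, and EIF3D had 4 and 5. In EIF4G3, where sites are sparse, 22 of the 26 sites had a neighbour within its cluster, while in EIF4G2, where they are dense, 21 of 50 sites stood alone.

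**Figure D5:**
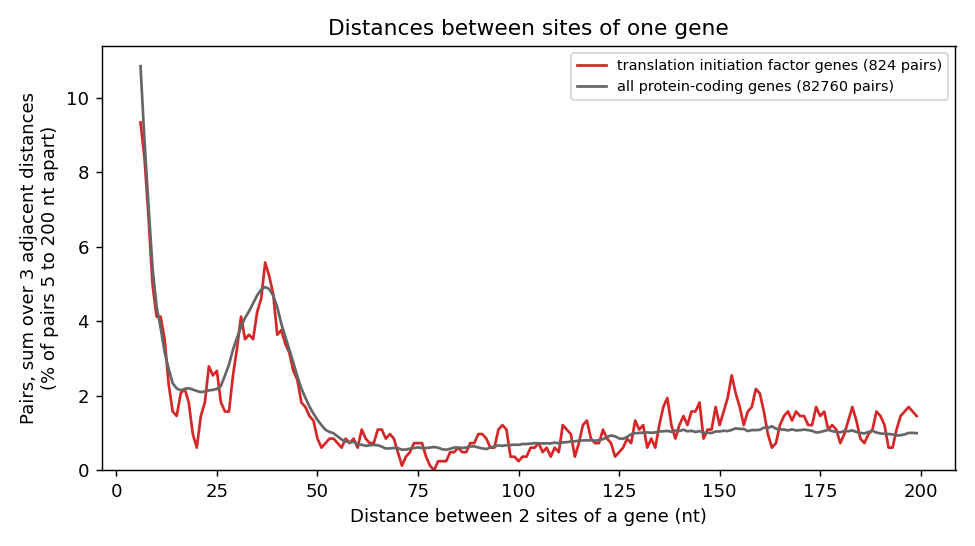
Distances between sites of one gene in nt (horizontal axis), as the share of all pairs 5 to 200 nt apart after summing over 3 adjacent distances, for the translation initiation factor genes (red, 824 pairs) and all protein-coding genes (grey, 82760 pairs). Both lines fall from the shortest distances and have a peak at 37 nt.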

How the data were processed

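The deposited table was a BED list of merged SF3B1 binding sites, 5 nt wide and, per the file headers, reproduced by all replicates of either condition. Its score column, as deposited by the authors, was 0 in every row, so sites could not be ranked. Per the submitters' processing notes, FastQC 0.11.8, STAR (2.7.3a and 2.6.1b), UMI-tools 1.0.0 and bedtools 2.27.1 were used with GRCh38 (p10 and p12), in roles not given in the sources used here. The site caller is not given there either. Positions were converted to 1-based coordinates, and a site was placed by its centre.

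Gene spans and biotypes came from a RefSeq table of GRCh38.p14 without exons. Strands came from RefSeq start windows for 47 members. For 7 others (EIF2AK1, EIF2S2, EIF3A, EIF3E, EIF3G, EIF3H and EIF3L) the strand that held the sites was taken, and EIF3CL and EIF4EBP1 had neither. In the 39 members with both, the 2 always gave the same strand. Of all 6555 protein-coding genes with a start window and any site, 6325 had most sites on the strand of the window. A site inside several genes was counted for each.

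The members, the list of other translation genes and the spans of distance were chosen with earlier results of these data known. Described in full are the 12 members with the most sites, the 5 with the most sites per kb among those with at least 5, and paralogs. The dense stretches of 3 kb and the groups with snoRNAs were singled out after their values were seen. The planned results on splice sites and exons, and the planned sequences at introns, were not made, since no exons or genome were used. Counting was tested on simulated sites before use. Scripts ran on pandas 2.3.3, SciPy 1.17.1 and NumPy 2.4.6 under Python 3.11.15.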

Additional observations from a re-analysis of the deposited data

How the results depend on the processing

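Of 18 recalculations of 7 results, 18 kept to set limits, which were 1.5 times for counts, medians and clusters and the 95% Wilson interval for shares and the pair ratio. The 46 genes with a site became 43 with at least 2 sites, 45 without sites inside another protein-coding gene on the same strand, and 39 among genes with a start window. The 7 genes left out in the last case got their strand from their sites. All of them therefore had a site, and this drop was fixed in advance. The 828 sites became 800 after touching sites were merged, 748 with 1 site per region number and 661 in genes with a start window. The pair ratio was 3.20 with 1 site per region number. Alternatives on genes with a start window, the link distance and leaving out EIF2AK1 were chosen after seeing the data. Another 4 recalculations, which need exons, were not run. Single replicates could not be left out of a merged list. No paired analysis was possible because replicates share 1 merged table. Depth is unknown, so a member with 0 sites cannot be ranked against another.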

Other observations

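Copies of these genes outside the protein-coding set were also counted. RefSeq lists 88 pseudogenes and 2 transcribed pseudogenes with a symbol of the same form. Of the 88, 2 (2.27%) had a site on either strand, 4 sites in all, against 0.570% of the 15614 RefSeq pseudogenes of that class. The difference was not tested. EIF3EP1, inside the span of KHDC1 on chromosome 6, had 3 and EIF2AK1P1, inside the span of ATR, had 1. The 2 transcribed pseudogenes had none. Of 7 long non-coding RNA genes with such a symbol, EIF3J-DT and EIF5-DT had 1 site each, and that in EIF5-DT lies on the strand of EIF5 and is counted there.

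On the strand opposite to a member, 3 sites were listed. Of these, 2 lay in EIF2D, at chr1:206586750-206586754 and chr1:206586791-206586795, where RASSF5 overlaps on that strand. The third lay in EIF5B, at chr2:99400991-99400995, where REV1 overlaps on that strand.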
